A study of Mus musculus with 2 samples.

Results

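Amino acid and neurotransmitter transporters were described across the neural precursors, glia, excitatory cells and inhibitory cells of the perinatal mouse forebrain. They were taken as every gene whose symbol begins with Slc3a, Slc6a, Slc7a, Slc17a, Slc32a, Slc36a, Slc38a or Slc43a, which gave 70 of the 31053 genes counted in both libraries. The Slc6a family had 22 members, Slc7a 16, Slc38a 11, Slc17a 9, Slc36a 6, Slc43a 3, Slc3a 2 and Slc32a 1. The rule reads symbols only, so it also took 4 opposite-strand genes whose symbols end in os. One of them, Slc7a6os, is protein coding and encodes a protein thought to act in nuclear import of RNA polymerase II, not a transporter, while the other 3 are annotated as antisense RNAs.

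Neurons load glutamate into synaptic vesicles through the Slc17a6, Slc17a7 and Slc17a8 proteins (VGLUT2, VGLUT1 and VGLUT3), and load GABA and glycine through the Slc32a1 protein (VGAT). After release, GABA is taken back up by sodium- and chloride-coupled carriers of the Slc6a family, of which Slc6a11 (GAT3) is best known from astrocytes. The Slc7a carriers exchange amino acids, and several of them reach the cell surface only when bound to the heavy chain Slc3a2. The Slc38a carriers move glutamine and small neutral amino acids, the Slc36a carriers move small amino acids with protons across the plasma and lysosomal membranes, and Slc43a carriers let large neutral amino acids through by facilitated diffusion. In the developing forebrain, precursors take up amino acids for growth, whereas the transmitter carriers are switched on as cells become neurons or astrocytes.

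Promoter sequence was available for 51 of the 70 members, in 75 windows that run from 250 bases before to 50 bases after a start site (RefSeq, GRCm38.p6). One motif was searched, the CEBP-ATF response element TGATGNAA, through which ATF4 acts on amino acid response genes, on both strands. Of all 32851 windows in the table, 3.97% held a match, and among the members matches lay before or at a start site of Slc7a11, Slc7a7, Slc6a21 and Slc17a1. One window of Slc7a7 also held 2 matches, at positions -141 and -1. Slc7a11 is shown because of its level in P2 astrocyte-like cells, and its 2 matches lie on opposite strands, beginning 66 and 47 bases before the start site (positions -66 and -47). Slc6a11 and Slc7a10 are shown beside it because these 3 genes were each highest in those cells, described further on. Each line gives the 250 bases before the start site, 5′ to 3′ on the gene's own strand, with matches in capitals, from chr3:50443614-50443863 (minus strand), chr6:114130991-114131240 (plus strand) and chr7:35186135-35186384 (plus strand). A match is a string of letters and was not tested as a binding site, and its absence says only that these letters are not in the window.
Slc7a11: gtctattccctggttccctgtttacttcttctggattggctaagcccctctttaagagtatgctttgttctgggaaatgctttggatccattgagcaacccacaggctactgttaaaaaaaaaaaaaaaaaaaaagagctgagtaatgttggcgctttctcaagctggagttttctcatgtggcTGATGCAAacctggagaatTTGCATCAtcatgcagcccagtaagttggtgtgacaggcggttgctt
Slc6a11: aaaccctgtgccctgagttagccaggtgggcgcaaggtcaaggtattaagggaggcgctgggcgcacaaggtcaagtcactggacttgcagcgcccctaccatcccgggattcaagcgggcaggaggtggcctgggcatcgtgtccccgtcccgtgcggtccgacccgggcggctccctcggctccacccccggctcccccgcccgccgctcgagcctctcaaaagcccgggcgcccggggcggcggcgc
Slc7a10: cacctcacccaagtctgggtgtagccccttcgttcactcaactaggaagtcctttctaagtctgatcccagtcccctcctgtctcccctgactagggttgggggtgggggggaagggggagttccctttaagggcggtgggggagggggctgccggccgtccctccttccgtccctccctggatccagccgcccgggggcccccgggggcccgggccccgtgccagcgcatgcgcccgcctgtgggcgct

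The data are 2 single-cell RNA libraries made with a method that counts unique molecular identifiers (UMIs). The E18 library came from CD1 embryos at embryonic day 18 and held cortex together with the dorsal ventricular-subventricular zone (V-SVZ), the layer of dividing cells beside the lateral ventricle. The P2 library came from Emx1Cre;R26Eyfpfl/fl pups at postnatal day 2 and held dorsal and lateral V-SVZ with the cortex removed. In these pups Cre under Emx1 control switches on EYFP in cells of cortical origin, and an EYFP UMI was found in 178 of the 217 excitatory and 315 of the 1282 inhibitory cells described below. Each age had 1 library and no replicate, so age, dissection, mouse line and library cannot be told apart, no test between libraries was possible, and every interval below is a 95% interval for counting error only. The labels do not say how many animals went into a library. Tissue of both ages was held in medium supplemented with glutamine and digested in an enzyme solution that contained L-cysteine, which are substrates or precursors of substrates of some members, and their part in the levels was not tested.

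The E18 library held 2922 cell barcodes and 19986915 UMIs, and the P2 library 2778 barcodes and 42572208 UMIs, with 0 barcodes shared. After filtering, 2496 E18 cells (median 6574 UMIs) and 2296 P2 cells (median 12525 UMIs) were clustered without any member gene and named from marker lists, as "-like" classes. E18 had 298 precursors (92 radial, 105 cycling and 101 excitatory intermediate progenitor-like cells), 50 glia, all oligodendrocyte precursor-like, 1832 excitatory and 300 inhibitory cells. P2 had 519 precursors (401 cycling and 118 inhibitory intermediate progenitor-like cells, whose leading genes also included Olig1 and Olig2), 204 glia (114 astrocyte-, 82 oligodendrocyte precursor- and 8 ependymal-like), 217 excitatory and 1282 inhibitory cells. The 114 astrocyte-like cells also carried stem cell markers such as Aldoc and Pla2g7 among their 10 leading genes, and no P2 cluster was named radial or stem. Microglia-like cells (10 at E18, 43 at P2) served as a class in which neuronal genes should be missing. Levels are UMIs summed over a class per 1000000 UMIs of that class (CPM), and a ratio was called when the gene had 20 or more UMIs over both classes, differed by 2-fold or more and had an interval that left out a ratio of 1.

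Slc17a6, the vesicular glutamate carrier VGLUT2, was highest in newborn excitatory cells and, at E18, as high in intermediate progenitor-like cells. It was low in the E18 clusters with deep-layer markers. In E18 the level was 89.1 CPM (66.7 to 117, 53 UMIs) in intermediate progenitor-like cells, 25.7 CPM (23.2 to 28.5) over all excitatory cells and 1.80 CPM (1 UMI) in radial precursors. Among the 8 E18 excitatory clusters Slc17a6 stood at 90.6 CPM (76.0 to 107) in cluster 2, which is led by Pcp4, Sstr2 and Neurod1, and at 84.8 CPM (57.6 to 120) in cluster 12. It stood at 46.6 CPM in cluster 0, at 9.58 to 17.2 CPM in clusters 1, 3 and 4, and at 3.79 and 0.897 CPM in clusters 7 and 5. The intervals of clusters 2 and 12 lay wholly above those of the other excitatory clusters. In P2 excitatory cells Slc17a6 reached 145 CPM (131 to 160, 393 UMIs), with 158 CPM in cluster 3, where Neurod1 and Eomes lead, and 104 CPM in cluster 14, where Neurod2 and Neurod6 are among the leading genes. At least 1 Slc17a6 UMI was found in 71.0% of P2 excitatory cells and in 0 of 43 P2 microglia-like cells, at median depths of 12271 and 19431 UMIs.

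Slc17a7, the vesicular glutamate carrier VGLUT1 that serves most mature cortical excitatory neurons, was high in the E18 excitatory clusters in which Slc17a6 was low. Its level was 67.2 CPM (52.5 to 84.8, 71 UMIs) in cluster 7, which is led by Hs3st4, Syt6 and Tle4, genes of deep cortical layers, and 17.1 CPM (12.1 to 23.4) in cluster 5, led by Nefl, Nefm and Fezf2. The other 6 clusters lay between 2.74 and 6.38 CPM, and their intervals overlapped. Slc17a7 was at 0 UMIs in E18 radial, cycling, oligodendrocyte precursor-like and inhibitory cells, and at 3.69 CPM (10 UMIs) in P2 excitatory cells. Of the 1832 E18 excitatory cells, 296 had a Slc17a6 UMI, 130 had a Slc17a7 UMI and 13 had both. In P2, 154 of 217 excitatory cells had Slc17a6, 10 had Slc17a7 and 6 had both.

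**Figure D1:**
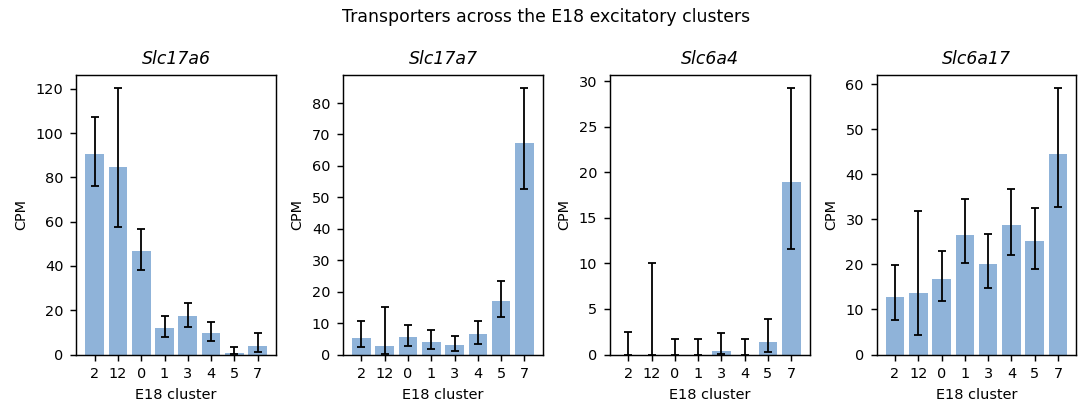
Level in CPM (vertical axes, each on its own linear scale) of Slc17a6, Slc17a7, Slc6a4 and Slc6a17 in the 8 E18 excitatory clusters (horizontal axes, cluster numbers), with 95% counting intervals as whiskers. Slc17a6 falls from 90.6 CPM in cluster 2 to 3.79 CPM in cluster 7, where Slc17a7 reaches 67.2 CPM and Slc6a4 18.9 CPM.

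Slc17a8, the vesicular carrier VGLUT3, was nearly missing from neurons but was found in the P2 ependymal-like cells, the ciliated cells that line the ventricle. There its level was 123.5 CPM over 53 UMIs, carried by 7 of the 8 cells, with 0 to 14 UMIs per cell and a median of 6.5. In every other class named here Slc17a8 stood at 0.643 CPM or less. These 8 cells had a median of 50443.5 UMIs, the deepest of any class, and they come from 1 library. With the highest 10% of doublet scores dropped, 2 ependymal-like cells were left. At a 5% mitochondrial limit no P2 cells took that name. The same cells had the highest Slc38a1 level of any class, 568 CPM, with 6 to 51 UMIs per cell.

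Slc32a1, the vesicular GABA carrier VGAT, was found at E18 mostly in inhibitory cells, at 169 CPM (149 to 192, 253 UMIs) against 0.354 CPM (5 UMIs) in excitatory cells and 0 UMIs in radial, intermediate progenitor-like and oligodendrocyte precursor-like cells. In P2 it stood at 81.3 CPM (76.4 to 86.4) in neuroblast- and interneuron-like cells and 98.5 CPM (85.6 to 113) in striatal-like cells, with intervals that overlap. P2 excitatory cells held 2.95 CPM (8 UMIs, 2 cells) and microglia-like cells 2.24 CPM (2 UMIs). Among P2 precursors, Slc32a1 was at 24.8 CPM (21.9 to 27.9, 270 UMIs) in cycling cells and at 0.511 CPM (1 UMI) in inhibitory intermediate progenitor-like cells. Within the cycling class it was uneven, with 38.8 CPM in cluster 2, 32.4 CPM in cluster 16, 17 CPM in cluster 10 and 3.0 CPM in cluster 12, the cluster led by Egfr.

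Slc6a11, the astroglial GABA carrier GAT3, was highest in P2 astrocyte-like cells, at 292 CPM (270 to 316, 627 UMIs), with 91.2% of these cells positive. P2 inhibitory intermediate progenitor-like cells held 38.3 CPM (30.1 to 48.0), cycling cluster 12 held 87.7 CPM, and the other cycling clusters 1.55 to 4.63 CPM. In E18 it was 34.2 CPM in radial precursors and 29.8 CPM in cycling cells, intervals that overlap, and 1.68 CPM (1 UMI) in intermediate progenitor-like cells. E18 excitatory cells kept 12.2 CPM (10.4 to 14.2), most in clusters 3 and 5 (19.3 and 19.7 CPM), and E18 inhibitory cells 4.02 CPM (6 UMIs). Thinned to 2000 UMIs, 41.8% of P2 astrocyte-like cells, 4.71% of E18 radial precursors and 0% of P2 microglia-like cells had a Slc6a11 UMI.

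**Figure D2:**
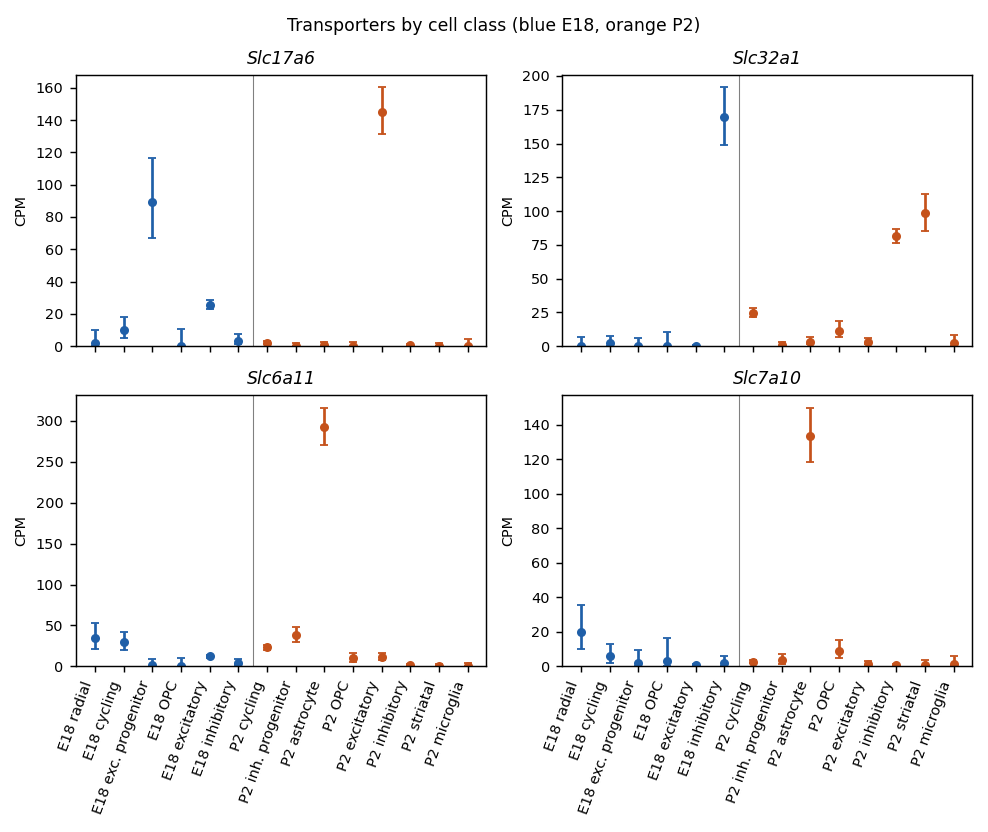
Level in CPM (vertical axes, linear) of Slc17a6, Slc32a1, Slc6a11 and Slc7a10 by library and cell class (horizontal axis; blue E18, orange P2; OPC stands for oligodendrocyte precursor-like), with 95% counting intervals as whiskers. Slc17a6 is highest in intermediate progenitor-like cells at E18 and in excitatory cells at P2, and Slc32a1 is highest in inhibitory classes of both libraries. Slc6a11 and Slc7a10 peak at 292 and 133 CPM in P2 astrocyte-like cells.

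Inhibitory against excitatory cells of the same library asked which carriers part the neuron types. In E18, 2 members were higher in inhibitory cells and 4 lower, of 30 with enough UMIs, where 6.22% of all tested genes were called higher and 6.02% lower. In P2 it was 3 higher and 4 lower of 31, where 6.59% of all tested genes were called higher and 6.8% lower. Among those called in both libraries were Slc32a1, higher in inhibitory cells, and Slc17a6, Slc6a11 and Slc6a17, lower. Slc32a1 had a log2 ratio of 8.90 (7.66 to 10.53) in E18 and 4.82 (3.84 to 6.04) in P2. Slc17a6 had -2.94 (-4.57 to -1.71) in E18, where inhibitory cells held 5 UMIs, and -8.28 (-9.60 to -7.22) in P2. Slc6a17, a vesicular carrier for neutral amino acids in glutamatergic terminals, went from 23.6 to 8.03 CPM in E18 and from 22.9 to 9.88 CPM in P2. Within the P2 inhibitory class, however, the striatal-like cells held 34.6 CPM of Slc6a17, more than the excitatory cells. The P2 call of Slc6a17 ended at a 5% mitochondrial limit (-0.71) and after thinning to 2000 UMIs (-0.31). Slc17a7 was called lower in E18 inhibitory cells, at 0 against 160 UMIs, and Slc7a8, a light chain for neutral amino acids (2.07 against 4.80 CPM), was lower and Slc6a20b higher (3.34 against 0.739 CPM, 2 UMIs in excitatory cells) in P2. The calls of Slc7a8 and Slc6a20b ended with the highest doublet scores kept (-0.87 and 1.16) and at the 5% mitochondrial limit. Thinning to 2000 UMIs ended them too, and the calls of Slc6a11 in E18 (-0.35) and P2 (-2.17) and of Slc17a7 in E18 (-0.76). The median log2 ratio of the tested members was 0.23 in E18 and 0.04 in P2, beside 0.05 and -0.03 over all tested genes. Scaling by TMM factors moved every log2 ratio by -0.25 in E18 and by 0.11 in P2 and left the member counts at 2 and 4, and 3 and 4.

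**Figure D3:**
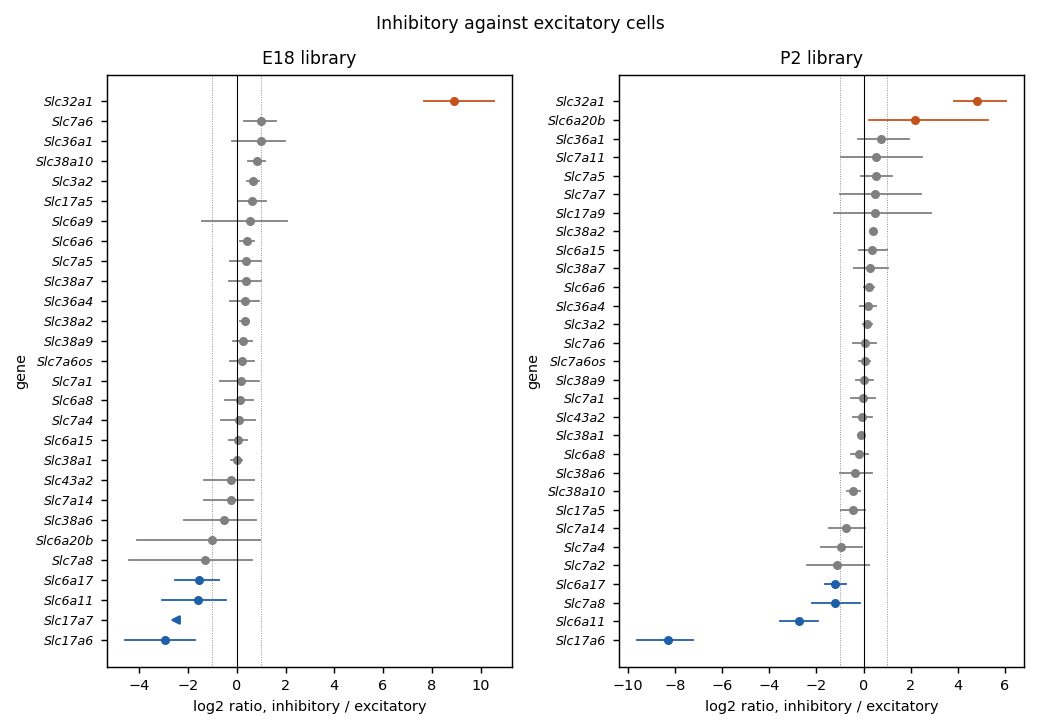
Log2 ratio of inhibitory to excitatory cells (horizontal axes) for members with 20 or more UMIs and a ratio (rows), E18 left and P2 right, with 95% counting intervals as lines. Orange and blue mark members called higher and lower, dotted lines a 2-fold ratio, and the triangle a bound where inhibitory cells had 0 UMIs (Slc17a7). Slc32a1 stands highest and Slc17a6 lowest among the members drawn in both libraries.

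The remaining transmitter carriers of the plasma membrane were sparse, apart from a few settings. Slc6a4, the serotonin transporter, had 24 UMIs in the E18 excitatory class and 20 of them in cluster 7, at 18.9 CPM (11.6 to 29.3) against 1.35 CPM (3 UMIs) in cluster 5 and 0 or 0.420 CPM in the other 6 excitatory clusters. It had 0 UMIs in every P2 class. Slc6a2 and Slc6a3, the norepinephrine and dopamine transporters, stayed under 1 CPM in every class of 40 or more cells. The glycine carrier Slc6a5 and the GABA carriers Slc6a12 and Slc6a13 had at most 1 UMI in any class, apart from 3 UMIs of Slc6a12 in the ependymal-like cells. Slc6a9, the glial glycine carrier GlyT1, stood at 44.8 CPM (36.3 to 54.7, 96 UMIs) in P2 astrocyte-like cells and 30.3 CPM in ependymal-like cells, against 7.07 CPM or less in all other P2 classes and 5.81 CPM or less in all E18 classes.

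Precursors against neurons asked which carriers belong to dividing and undifferentiated cells. In E18, 4 members were higher and 8 lower in precursors of 33 tested, where 17.2% of all tested genes were called higher and 15.7% lower. In P2, 9 were higher and 9 lower of 37, where 13.3% of all tested genes were called higher and 15.3% lower. The E18 count of higher members is thus below the background share and the other counts are above it. Higher in precursors of both libraries were Slc6a11, Slc7a10, Slc7a2 and Slc38a3. The E18 call of Slc6a11 (log2 ratio 1.02) ended under TMM factors (0.84), which gave 3 members higher and 10 lower in E18 precursors. Slc38a3, the glutamine carrier SNAT3, stood at 27.3 against 0.513 CPM in E18 (log2 ratio 5.74, 4.66 to 7.01) and at 5.92 against 0.622 CPM in P2 (3.25, 2.33 to 4.31). Slc7a10, the alanine-serine-cysteine carrier Asc-1, had log2 ratios of 3.44 and 1.93, and Slc7a2, a cationic amino acid carrier, 3.32 and 1.68. The P2 call of Slc7a10 ended at a 5% mitochondrial limit (0.95) and at Leiden resolution 0.5 (1.01, not called). A 50-UMI minimum ended both calls of Slc7a10 and the E18 call of Slc7a2. P2 precursors alone passed the rule for Slc7a5, Slc7a11, Slc6a9, Slc43a1 and Slc43a3, and whether the libraries differ in this was not tested. Slc7a11 had a log2 ratio of -1.60 after thinning to 2000 UMIs. At the 5% mitochondrial limit and at Leiden resolution 0.5 the calls of Slc7a11 (0.53 and 0.70), Slc6a9 and Slc43a3 ended.

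Lower in precursors of both libraries were Slc32a1, Slc6a17, Slc6a6, Slc6a15, Slc7a4, Slc7a8 and Slc7a14. With the mean of per-cell CPM the P2 calls of Slc6a15 (-0.97), Slc7a8 (-0.73) and Slc7a4 (-0.11) ended. The P2 call of Slc7a8 (-1.09) also ended with the highest 10% of doublet scores dropped (-0.77) and at Leiden resolutions 0.5 (-0.98) and 2 (-0.75). Its E18 call (-1.18) ended at a 5% mitochondrial limit (-0.98) and with a 50-UMI minimum. Thinning to 2000 UMIs ended the Slc7a8 calls of both libraries. Slc6a6, the taurine carrier, stood at 5.56 CPM in E18 precursors against 58.5 CPM in neurons (log2 ratio -3.40, -4.35 to -2.58) and at 29.4 against 85.0 CPM in P2 (-1.53, -1.70 to -1.37). Slc6a15, a carrier of branched-chain amino acids and proline, stood at 8.81 against 43.3 CPM in E18 and 5.92 against 13.9 CPM in P2, and across the E18 excitatory clusters it ran from 10.1 CPM in cluster 2 to 81.5 CPM in cluster 7. Slc6a6 was likewise lowest in cluster 2 (20.8 CPM) and highest in cluster 7 (80.5 CPM), with cluster 5 (79.9 CPM) not apart from it. Precursor classes differed among themselves in both libraries: Slc38a3 was at 70.1 CPM in E18 radial precursors, 15.9 CPM in cycling and 6.72 CPM in intermediate progenitor-like cells, and Slc17a6 was at 1.80, 9.93 and 89.1 CPM in the same order.

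Glia against neurons gave 2 members higher and 4 lower of 30 in E18, where 9.29% of all tested genes were called higher and 10.8% lower. In P2 it gave 11 higher and 5 lower of 36, where 25.2% of all tested genes were called higher and 9.21% lower. The E18 glia were oligodendrocyte precursor-like cells only, so the glial classes of the libraries are not the same mixture. Slc7a5, the large neutral amino acid carrier LAT1, was higher in glia of both libraries, at 52.3 against 13.1 CPM in E18 and 25.4 against 12.2 CPM in P2, and within P2 glia at 43.7 CPM in oligodendrocyte precursor-like and 15.4 CPM in astrocyte-like cells. Its P2 call (log2 ratio 1.07) ended under TMM factors (0.74). Slc6a6, Slc6a17 and Slc17a6 were lower in glia of both libraries, of which the E18 call of Slc6a17 (-1.93) turned to 0.46, not called, with the mean of per-cell CPM. In P2 the highest ratio was that of Slc17a8 (6.88, 4.96 to 9.96), which came from the ependymal-like cells. This call ended with the highest 10% of doublet scores dropped (4.03, not called), at a 5% mitochondrial limit and after thinning to 2000 UMIs. The next ratios belonged to members highest in astrocyte-like cells, with Slc7a10 (133 CPM there, log2 ratio of all glia to neurons 6.64, 5.85 to 7.57), Slc38a3 (84.0 CPM, 6.64, 5.78 to 7.66), Slc6a11 (5.65, 5.25 to 6.08), Slc6a9 (5.10, 4.32 to 5.98) and Slc7a2 (4.06, 3.45 to 4.71). Slc7a11, the cystine-glutamate exchanger xCT that brings in cystine for glutathione, stood at 58.8 CPM (126 UMIs) in astrocyte-like cells, 22.9 CPM in cycling cluster 12, 0.643 CPM in oligodendrocyte precursor-like cells and 2.04 CPM in neurons. Under TMM factors, which moved the P2 ratios by -0.32 on the log2 scale, 8 members were higher and 5 lower, and the calls that ended were those of Slc7a5, Slc7a7 (0.74) and Slc17a5 (0.85), the carrier of sialic acid out of lysosomes.

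**Figure D4:**
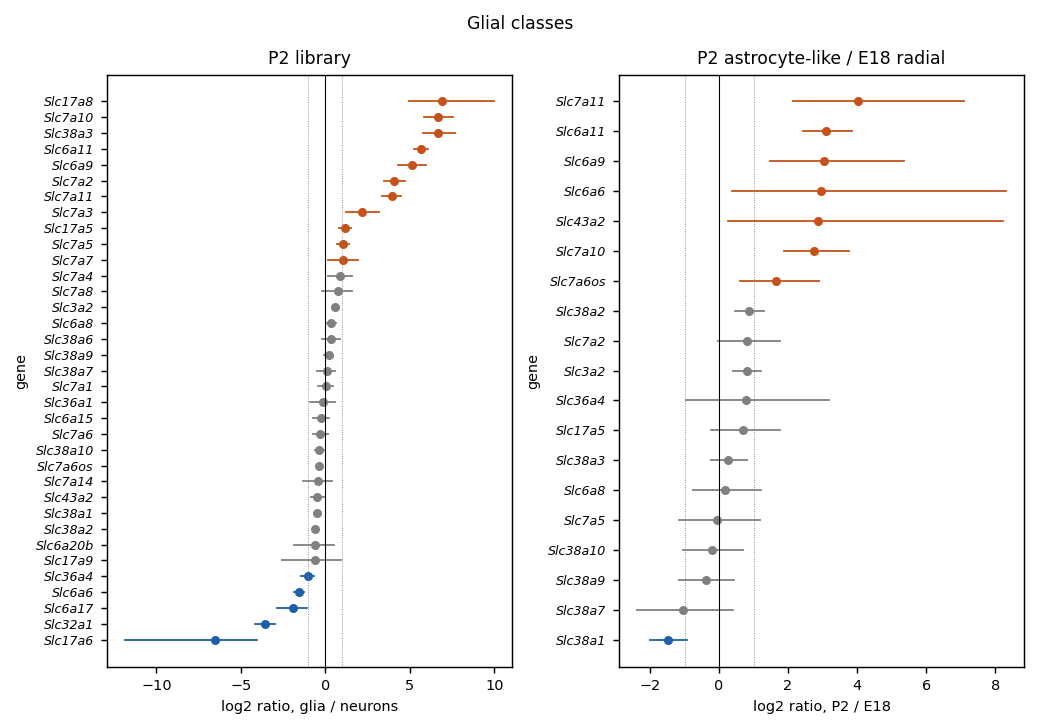
Log2 ratios (horizontal axes) of P2 glia to P2 neurons (left) and of P2 astrocyte-like cells to E18 radial precursors (right) for members with 20 or more UMIs over both classes, with 95% counting intervals as lines. Orange and blue mark members called higher and lower, and dotted lines a 2-fold ratio. Slc7a10, Slc38a3, Slc6a11 and Slc6a9 have ratios above 5 on the left, and Slc38a1 is the single member called lower on the right.

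Among carriers of general amino acid supply, Slc38a2, Slc38a1 and Slc3a2 were found in every class of 40 or more cells, whereas Slc7a7 and Slc7a8 were at 0 UMIs in some of them. Slc38a2, the amino acid-regulated carrier SNAT2, ranged from 97.1 CPM in E18 radial precursors to 161 CPM in E18 inhibitory cells, and from 168 to 332 CPM across the P2 classes of 40 or more cells other than microglia-like cells (145 CPM). Slc38a1, the neuronal glutamine carrier SNAT1, lay between 74.5 and 120 CPM in the E18 classes of 40 or more cells. In P2 it was at 175 CPM in inhibitory and 189 CPM in excitatory cells, and at 34.5 CPM (74 UMIs) in astrocyte-like cells. The heavy chain Slc3a2 was highest in microglia-like cells, at 223 CPM in E18 (10 cells) and 425 CPM in P2, and at 188 CPM in P2 astrocyte-like cells against 94.9 CPM in excitatory cells. Its partners Slc7a7 and Slc7a8 were highest in microglia-like cells too, at 92.9 and 109 CPM in P2, where Slc7a7 stood at 2.80 CPM in astrocyte-like cells and Slc7a8 at 9.65 CPM in oligodendrocyte precursor-like cells. Slc43a2, a facilitated carrier of large neutral amino acids, was at 94 CPM in P2 microglia-like cells and at 13.1 to 25.4 CPM in the P2 neural classes.

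**Figure D5:**
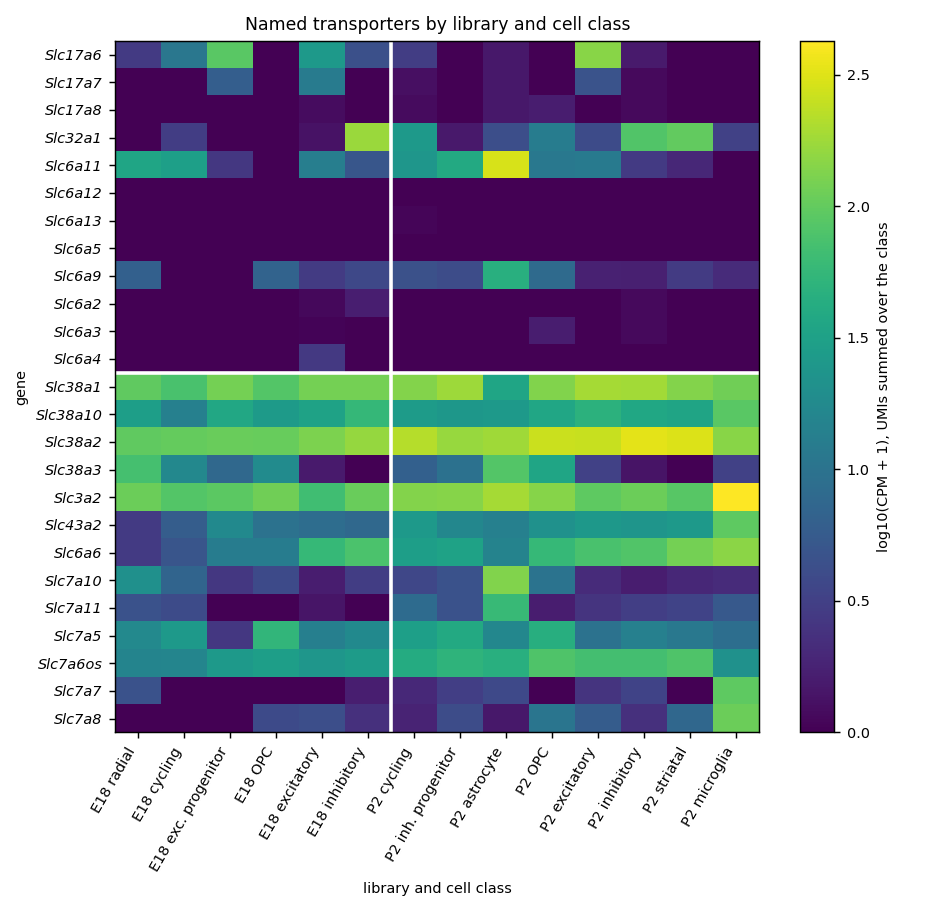
Level of the named members (rows) in each class of 40 or more cells of E18 (left of the white line) and P2 (right), as log10(CPM + 1); upper rows are vesicular and plasma membrane transmitter carriers, lower rows the other members. Colours are to be compared along a row, since levels of different genes are not scaled for length. Slc38a1, Slc38a2 and Slc3a2 are found in every class, while Slc17a6, Slc32a1, Slc6a11 and Slc7a10 are concentrated in few.

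P2 against E18 was compared within like-named classes, as values of 1 library each. Cycling cells had 9 members higher and 2 lower of 31, where 12.2% of all tested genes were called higher and 7.63% lower. Oligodendrocyte precursor-like cells had 5 higher and 0 lower of 18, against 20.8% and 4.34% of all tested genes. Excitatory cells had 5 higher and 3 lower of 30, against 18.8% and 8.61%, and inhibitory cells 3 higher and 3 lower of 30, against 15.3% and 9.52%. Median depth per cell was higher at P2 in each class, 26223 against 9423 UMIs in cycling cells, 15575.5 against 7182 in oligodendrocyte precursor-like cells, 12271 against 6827.5 in excitatory and 9978.5 against 4711 in inhibitory cells. In 4 of 4 classes Slc7a6os was higher at P2, with log2 ratios from 1.39 to 1.58, and in 3 of 4 Slc38a2 and Slc43a2 were. Slc38a2 had log2 ratios of 1.12 in cycling, 1.31 in oligodendrocyte precursor-like and 1.03 in inhibitory cells, the last of which ended at 0.998 without mitochondrial and ribosomal protein UMIs. Slc6a15 was lower at P2 in both neuron classes (-1.96 in excitatory, -1.64 in inhibitory cells), as was Slc7a4 (-1.09 and -2.16). The excitatory call of Slc7a4 ended with the highest doublet scores kept (-0.94) and at a 5% mitochondrial limit (-0.83). Thinning to 2000 UMIs ended both calls of Slc7a4 (-0.82 and -3.58) and the excitatory call of Slc6a15 (-0.33). The inhibitory mixtures differ, since only P2 had striatal-like cells. These held 46.4 CPM of Slc6a15 beside 44.8 CPM in E18 inhibitory cells, and 7.11 CPM of Slc7a4 beside 13.4 CPM. For excitatory cells TMM factors moved every ratio by -0.34 and gave 4 members higher and 5 lower in place of 5 and 3, and over all genes they moved the share of called genes that were higher from 68.5% to 42.6%. For oligodendrocyte precursor-like cells the shift was -0.29 and the counts 4 and 0.

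Transmitter carriers also differed between the libraries within classes. Slc17a6 was higher in P2 than in E18 excitatory cells (145 against 25.7 CPM, log2 ratio 2.50, 2.29 to 2.71) and Slc17a7 lower (3.69 against 11.3 CPM, -1.62, -2.71 to -0.70), though the mean of per-cell CPM gave -0.33 for Slc17a7 and ended that call. The P2 excitatory class consisted of clusters 3 and 14, of which cluster 3 carries newborn-cell markers, while E18 spread over 8 clusters, so the mixtures differ, and E18 cluster 2 alone held 90.6 CPM of Slc17a6. In cycling cells Slc32a1 was higher at P2 (24.8 against 1.99 CPM, 3.64, 1.77 to 6.69, 2 UMIs at E18) and Slc17a6 lower (2.02 against 9.93 CPM, -2.30, -3.44 to -1.06). Slc32a1 was lower at P2 in inhibitory cells (83.7 against 169 CPM, -1.02, -1.21 to -0.82), a call that ended under TMM factors (-0.99). Gad2, a GABA-synthesizing enzyme, was at 50.2 CPM in P2 excitatory cells against 0.567 CPM in E18, and at 11.2 CPM in P2 microglia-like cells, in a library with more inhibitory than excitatory cells. The part of free RNA or mixed droplets in the low Slc32a1 levels of P2 cells outside the inhibitory class was not tested.

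P2 astrocyte-like cells against E18 radial precursors was added after the levels were seen, since no P2 cluster was named radial or stem. Of 20 members tested, 8 were higher and 1 lower at P2, where 16.8% of all tested genes were called higher and 4.31% lower. The median log2 ratio of these members was 0.81 beside 0.26 over all tested genes. Slc6a11 went from 34.2 to 292 CPM (log2 ratio 3.10, 2.44 to 3.84) and Slc7a10 from 19.8 to 133 CPM (2.75, 1.89 to 3.77). Slc7a11 went from 3.60 CPM (2 UMIs) to 58.8 CPM (4.03, 2.15 to 7.09) and Slc6a9 from 5.39 CPM (3 UMIs) to 44.8 CPM (3.05, 1.46 to 5.36), while Slc6a6 and Slc43a2 rested on 1 UMI each at E18. Slc38a3 did not pass, at 84.0 against 70.1 CPM, and Slc38a1 was lower, at 34.5 against 95.3 CPM (-1.46, -1.99 to -0.93). That call of Slc38a1 ended with the highest doublet scores kept (-0.94) and at a 5% mitochondrial limit (-0.98). Median depth was 18531.5 UMIs against 6230.5 UMIs per cell.

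Other genes of the same pathways were read from lists chosen by function. Of 9 genes of serine and glycine metabolism, 7 were higher in precursors than in neurons in each library and none lower, with medians of 2.74 in E18 and 1.69 in P2 on the log2 scale, beside 0.01 and -0.09 over all tested genes, of which 17.2% were called higher and 15.7% lower in E18 precursors and 13.3% and 15.3% in P2 precursors. Phgdh, the first enzyme of serine synthesis, stood at 454 against 2.76 CPM in E18 and 266 against 20.0 CPM in P2. Of 10 genes for glutamate and glutamine handling, 6 were higher and 2 lower in E18 precursors, 4 higher and 1 lower in P2 precursors, and 6 higher and 0 lower in P2 glia. In P2 astrocyte-like cells Slc1a3 and Slc1a2, the astroglial glutamate carriers, stood at 2159 and 909 CPM, and Glul, which makes glutamine, at 1029 CPM. Slc1a3 was a marker for the radial or stem name and Slc1a2 for the astrocyte name. Their levels in precursors and glia, and their share in these counts, are therefore not independent of the naming. Of 12 genes of the ATF4 amino acid response, 10 could be tested in E18 precursors, with 4 higher and 2 lower. The 4 higher are above the 17.2% of all tested genes, and the list median was 0.53 beside 0.01. All 12 could be tested in P2 precursors, with 2 higher, near the 13.3% of all tested genes, and 1 lower. Asns, which makes asparagine, was lower in E18 precursors (6.02 against 21.7 CPM). Of 6 glutathione genes, 4 were higher and 0 lower in P2 glia, where 25.2% of all tested genes were called higher. In P2 astrocyte-like cells against E18 radial precursors 2 of the 6 were higher and 0 lower, with a median of 0.45 beside 0.26 over all tested genes. One of these was Gclc, a subunit of the rate-limiting enzyme of glutathione synthesis, at 47.6 CPM against 7.19 CPM. Of 4 GABA genes, 3 were called higher in inhibitory than in excitatory cells of each library, Gad1 and Gad2 in both. Gad1 and Gad2 were among the markers that named the inhibitory class, so their calls were fixed by the naming and add nothing to Slc32a1. Of 14 genes of lysosomal amino acid sensing, 1 was higher in E18 precursors and 0 in P2 precursors, and among 7 monoamine and acetylcholine genes none could be tested within E18.

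Of the 70 members, 33 had 20 or more UMIs in E18, 38 in P2 and 31 in both, and 13 had none in either library. Members at or near 0 included Slc36a3 and the kidney and gut carriers Slc6a18, Slc6a19, Slc7a9 and Slc3a1. All members together made up 720 CPM of E18 excitatory cells, 1152 CPM of E18 inhibitory cells and 602 CPM of E18 precursors, and in P2 1168 CPM of excitatory cells, 1256 CPM of inhibitory cells, 933 CPM of precursors and 1414 CPM of glia.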

How the data were processed

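The members, gene lists and cell type markers were chosen with earlier results of these data known. The authors deposited UMI counts per gene and barcode, made with Cell Ranger 4.0.0 per the file headers and aligned to mm10 per the submitters' processing notes; no label or header names the chemistry. Barcodes with under 500 genes or over 10% mitochondrial UMIs were removed (291 in E18, 336 in P2). Scrublet marked only 7 and 4 cells (0.266% and 0.164%), so the highest 5% of doublet scores were dropped instead (135 and 146 cells), and 1 and 2 cells with 4 or more immune or vascular markers inside another cluster were set aside. Each library was clustered alone with scanpy 1.11.5 (2000 variable genes, 30 components, 15 neighbours, Leiden resolution 1), without members, EYFP, mitochondrial, hemoglobin or sex-linked genes. A cluster took the name whose markers scored highest relative to all clusters of both libraries (0.5 or more, with 4 or more markers detected); the scoring rule was settled after the data were seen.

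Counts were summed per class and divided by the class total to give CPM, with exact Poisson intervals. Ratios carry exact conditional (Clopper-Pearson) intervals at 95%, and a class at 0 was set to 3 UMIs, per class, to give a bound. No test was made, since each group has 1 library. PCR copies are collapsed by UMIs, and intervals cover counting error only. Shares of cells were also computed after thinning to 2000 UMIs, which left out 59 E18 and 80 P2 cells. Calls were checked on simulated counts. TMM factors came from edgeR 4.0.16. Members were named when they reached 50 CPM in a class of 40 or more cells, or carry a transmitter by textbook role. Slc6a15, Slc6a17, Slc6a20b, Slc7a1, Slc7a2, Slc7a4, Slc7a14, Slc17a5, Slc36a3, Slc43a1, Slc43a3 and the unused kidney and gut carriers fall outside that rule. These were named after their values were seen. Alternatives were other scalings, filters, clusterings and call rules. Values of 1 member are not reported here, and it is left out of the figures but stays in the counts of members.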

Additional observations from a re-analysis of the deposited data

Results flagged for a closer look

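The P2 to E18 ratio of 2 members had opposite signs in 2 classes, with counting intervals on opposite sides of 0, and the difference was not tested because each age has 1 library. Slc32a1 was higher at P2 in cycling cells (log2 ratio 3.64) and lower in inhibitory cells (-1.02), a gap of 4.66 on the log2 scale. Slc17a6 was higher at P2 in excitatory cells (2.50) and lower in cycling cells (-2.30), a gap of 4.79. The P2 tissue includes lateral V-SVZ and the E18 tissue cortex, so age and region cannot be told apart.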

How the results depend on the processing

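No paired analysis was possible because each age has 1 library and the labels give no shared replicate numbers. Of the 104 member calls over all comparisons, the following remained: 97 under TMM factors, 99 without mitochondrial and ribosomal protein UMIs, 94 with mean per-cell CPM, 96 with the highest doublet scores kept, 96 with 10% dropped, 102 with members allowed in clustering, 92 with a 50-UMI minimum, 75 of 93 at a 5% mitochondrial limit, 81 of 93 and 87 of 90 at Leiden resolutions 0.5 and 2, 35 of 39 in P2 cells with EYFP, and 45 after thinning to 2000 UMIs, which leaves fewer UMIs. Slc7a11 reversed in P2 precursors against neurons after thinning (-1.60), and Slc7a7 in P2 glia against neurons after thinning (-0.59) and with 10% of doublet scores dropped (-0.15). Outside the named members, Slc6a17 changed sign in E18 glia with mean per-cell CPM (0.46) and Slc7a1 in P2 against E18 cycling cells after thinning (-0.03).

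After thinning, inhibitory against excitatory cells had 2 lower in E18 and 2 in P2; precursors 1 higher and 4 lower in E18, 2 higher and 5 lower in P2; glia 0 lower in E18 and 6 higher in P2; P2 against E18 gave 3 higher and 0 lower in cycling, 1 higher in oligodendrocyte precursor-like, 0 lower in excitatory cells, and 4 higher in astrocyte-like against radial cells. A 1.5-fold limit gave 6 higher in E18 inhibitory cells, 16 lower in P2 precursors, 12 higher and 5 lower in P2 against E18 excitatory cells and 7 lower in inhibitory cells. A 50-UMI minimum gave 2 higher in E18 precursors and 1 lower in P2 against E18 cycling cells; no minimum gave 7 higher in E18 precursors, 8 higher in excitatory cells and 3 lower in astrocyte-like cells. A 5% mitochondrial limit gave 5 higher in P2 precursors, 8 higher in excitatory and 0 lower in astrocyte-like cells; Leiden resolution 0.5 gave 5 higher in P2 precursors. Keeping high doublet scores gave 8 higher in excitatory and 0 lower in astrocyte-like cells, and TMM factors 5 lower in excitatory cells. The causes of these moves were not tested beyond the fewer UMIs or cells they use. E18 glia and the oligodendrocyte precursor-like comparison had fewer than 40 E18 cells at the 5% limit and resolution 0.5. At resolution 2 the P2 against E18 excitatory and inhibitory comparisons were left out, since an E18 excitatory and a P2 inhibitory cluster held, among their 10 leading genes, markers of a different class in greater number than their own. A P2 radial or stem class was named at that resolution alone (6 members higher, 1 lower than in E18).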
